A study of Mus musculus with 6 samples.

Results

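The cytosolic ribosomal protein genes encode the proteins that, with the ribosomal RNAs, form the large and the small subunit of the ribosome. They were taken by mouse gene symbol: Rpl or Rps with a number and, where present, a suffix letter or number, together with Rplp0, Rplp1, Rplp2 and Rpsa. Of 36079 genes in the table, 87 had such a symbol and 82 of these averaged 0.5 FPKM or more (fragment counts divided by the length of the gene and by library depth) across the 6 libraries. They were 82 of the 16009 genes at that level, all of which were tested. The 82 comprised 48 genes of the large and 34 of the small subunit, and 79 were annotated as protein coding. The other 3, Rpl6l, Rps3a3 and Rps4l, were annotated as pseudogenes.

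RNA was measured in temporal lobe tissue of epileptic mice. Epilepsy had been induced in both groups with kainic acid, which activates glutamate receptors and causes seizures. A group of 3 mice then had chow for 3 weeks and the other group of 3 a ketogenic diet, which is high in fat and low in carbohydrate, and each mouse gave 1 library. The sources used here do not give strain, sex, age, the interval between kainic acid and the diet or the content of either diet, and the sample labels name the tissue only as brain. No mice without kainic acid were analysed here, so the groups differ by diet among epileptic mice only. The reads behind the FPKM values numbered 40227092 to 56325232 per library, and the median ribosomal protein gene had 3939 reads per library against 961 for the median tested gene.

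The small subunit decodes messenger RNA and the large subunit joins the amino acids, and each ribosome carries about a single copy of nearly every protein, so the genes are usually expressed together. Their messenger RNAs begin with a C followed by a run of pyrimidines, the 5′ TOP (terminal oligopyrimidine) motif, through which the kinase mTOR and the RNA-binding protein Larp1 control their translation. In neurons, ribosomes and ribosomal protein messenger RNAs are also found in dendrites and axons, where proteins are made close to synapses.

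Promoter sequences were searched for pyrimidine runs around the annotated start. The RefSeq promoter table (build GRCm38.p6, 250 bases before to 50 after the annotated start) held 70 promoters of 59 of the 82 genes. A run of at least 8 C or T letters on the gene's strand lay between 25 bases before and 25 after the start in 33 of the 70, or 47.1%, against 19.7% of all 32851 promoters in the table. It was present in 53.7% of the 41 large subunit and 37.9% of the 29 small subunit promoters. The letters CCGGAAG, the core of sites bound by ETS-family factors, were found on either strand anywhere in the 300 bases in 37.1% of the 70 promoters against 8.86% of all. AAGATGG, part of the site of the factor YY1, was found in 17.1% against 6.34%. These shares describe letters in the windows and were not tested. The 4 genes of each subunit with the highest mean FPKM among matched genes with the run are shown from 40 bases before to 20 after the start, with the longest C or T run in capitals. In Rpl4, Rpl19, Rpl31 and Rps25 the run ends before the annotated start, so it lies outside the annotated messenger RNA.
Rpl4, chr9:64173347-64173406, plus strand: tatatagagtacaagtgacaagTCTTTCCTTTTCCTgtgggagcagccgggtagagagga
Rpl38, chr11:114668540-114668599, plus strand: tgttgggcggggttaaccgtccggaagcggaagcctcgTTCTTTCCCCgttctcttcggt
Rpl19, chr11:98026884-98026943, plus strand: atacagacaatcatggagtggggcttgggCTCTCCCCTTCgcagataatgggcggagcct
Rpl31, chr1:39367811-39367870, plus strand: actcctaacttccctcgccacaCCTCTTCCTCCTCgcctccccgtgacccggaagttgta
Rps6, chr4:86857348-86857407, minus strand: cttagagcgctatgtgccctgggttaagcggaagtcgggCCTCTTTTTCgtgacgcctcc
Rps26, chr10:128626487-128626546, minus strand: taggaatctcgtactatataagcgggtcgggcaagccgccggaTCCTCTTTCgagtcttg
Rps9, chr7:3704001-3704060, plus strand: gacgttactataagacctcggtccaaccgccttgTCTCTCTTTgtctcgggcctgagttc
Rps25, chr9:44407674-44407733, plus strand: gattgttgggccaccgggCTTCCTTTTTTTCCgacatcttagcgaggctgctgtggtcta

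The libraries differed in the brain regions and cells they held, and the diets were not balanced for this. All 10 excitatory neuron markers were read, with a summed level of 431 to 1196 FPKM on chow and 903 to 1640 FPKM on the ketogenic diet. The 14 thalamic and hypothalamic markers summed to 56.5 to 625 FPKM on chow, highest in chow replicate 1, and to 48.5 to 85.9 FPKM on the ketogenic diet. The 13 striatal markers ranged from 109 to 1384 FPKM on chow and from 101 to 1132 FPKM on the ketogenic diet, and the 12 choroid plexus markers from 41.1 to 2147 and from 37.3 to 1245 FPKM. Myelin markers (11 genes) summed to 980 to 2398 and 689 to 1588 FPKM, and the 5 erythrocyte markers to 12.6 to 35.3 and 3.28 to 4.40 FPKM. Microglial, astrocyte and endothelial markers (10, 8 and 8 genes) spanned 171 to 243, 433 to 509 and 65.9 to 88.3 FPKM on chow, and 176 to 210, 390 to 475 and 59.8 to 70.7 FPKM on the ketogenic diet. No marker was at 0 in all 6 libraries. The part of these differences in the values that follow was not tested, and in bulk tissue fewer cells of a type and less RNA per cell cannot be told apart.

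No ribosomal protein gene differed between the diets past the threshold. In limma's test across all 16009 genes, 0 of the 82 had a Benjamini-Hochberg adjusted p under 0.05, the same as the 0% of all tested genes, and their smallest adjusted p was 0.752. At an unadjusted p under 0.05, 2 were higher on the ketogenic diet (Rpl29 among them, background 2.06%) and 2 were lower (Rps12 and Rps27, background 3.32%). All 3 ketogenic libraries lay above all 3 chow libraries for 4 genes (background 4.9%) and below them for 5 (background 7.49%). The counts at an unadjusted p under 0.05 rested on single libraries. Without chow replicates 1, 2 and 3 in turn they were 5, 1 and 0 higher and 0, 4 and 1 lower, and without ketogenic replicates 1, 2 and 3 they were 3, 0 and 1 higher and 0, 2 and 2 lower. On reads recovered from the FPKM, limma's voom gave 0 past the adjusted threshold, with 1 higher and 2 lower at an unadjusted p under 0.05.

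The changes were small and lay on both sides of 0. The log2 change was positive in 52 and negative in 30 of the 82 genes (63.4% positive, against 43.1% of all tested genes), with a median of 0.04 against -0.04 over all tested genes. It was within 0.25 of 0 on either side in 73 of the 82. The 95% interval lay within 1 of 0 on both sides in 79 of them (96.3%, against 81.9% of all tested genes). The median spread within a diet, as a standard deviation of log2(FPKM + 0.5), was 0.13 against 0.20 over all tested genes. The count of positive changes depended on chow replicate 3, without which it was 39 of 82, and ran from 44 to 59 when any other single library was left out. Centring each library on its median gave 61 positive changes and quantile normalization 44.

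The log2 changes of large and small subunit genes had medians close to each other. Of the 48 large subunit genes, 30 had a positive and 18 a negative log2 change, and of the 34 small subunit genes 22 and 12. The median log2 change was 0.04 in both. With single libraries left out it ran from -0.0067 (without chow replicate 3) to 0.071 (without ketogenic replicate 1) for the large and from 0.018 (without chow replicate 3) to 0.12 (without chow replicate 1) for the small subunit. Without ketogenic replicate 2 the large subunit median was 0.00085, and with median centring both were 0.095. Their lower and upper quartiles were -0.06 and 0.14 for the large and -0.05 and 0.13 for the small subunit. Summed FPKM of the large over that of the small subunit was 1.42, 1.44 and 1.43 on chow and 1.48, 1.45 and 1.45 on the ketogenic diet. Each ketogenic ratio was above each chow ratio, and the closest, replicate 2 of each diet, stood at 1.446 and 1.444. A sum of FPKM rests most on the most abundant genes. Rplp1, the highest member, had 362, 376 and 334 FPKM on chow and 364, 468 and 460 on the ketogenic diet. The small subunit sum leaves out Rps27rt, a copy of Rps27 outside the symbol rule that is described below. The medians of each gene's log2(FPKM + 0.5) relative to its own mean did not separate the diets. Large minus small subunit, they differed by 0.0035, -0.0028 and 0.030 on chow and by 0.047, -0.039 and -0.022 on the ketogenic diet. The part of single genes in the summed ratio was not tested.

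**Figure D1:**
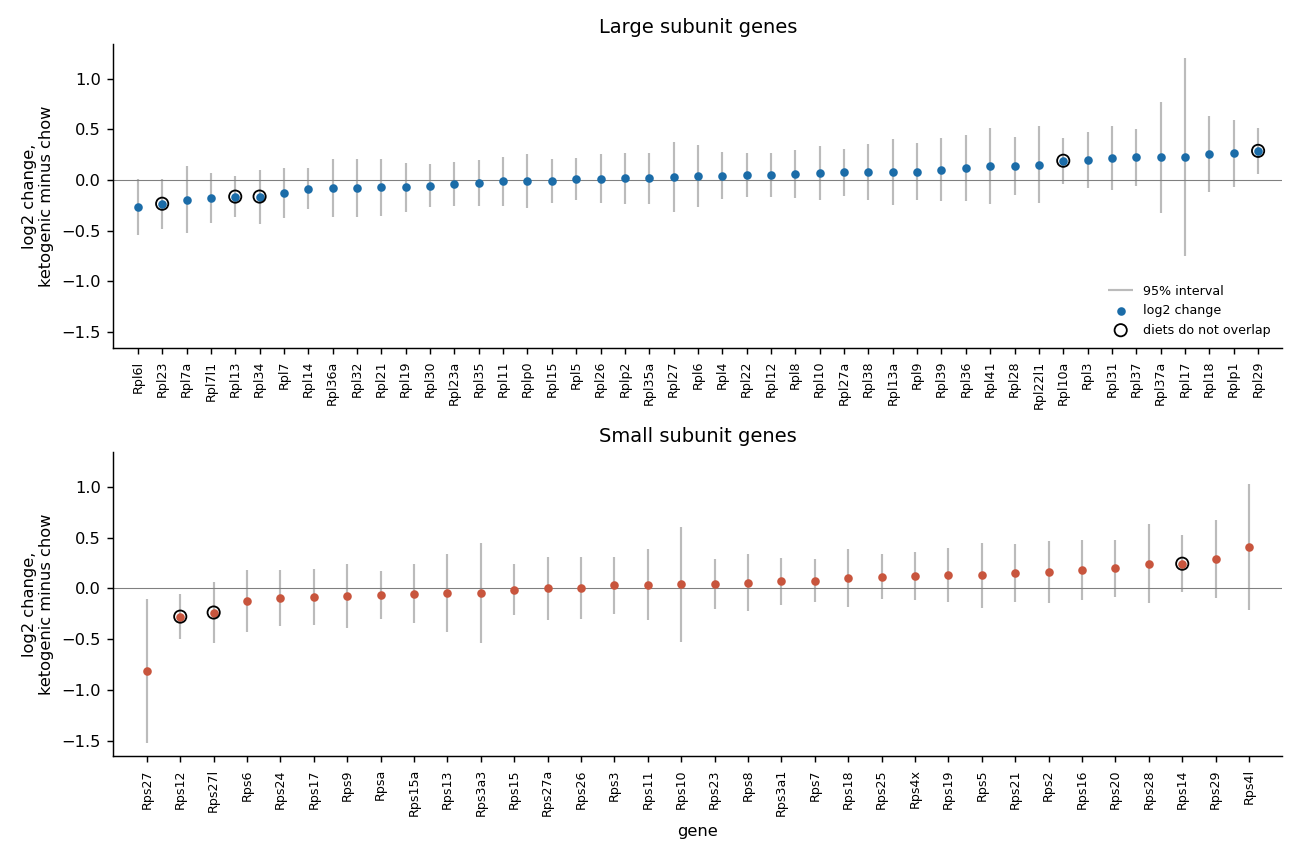
Log2 change of log2(FPKM + 0.5), ketogenic minus chow, for large subunit (top) and small subunit genes (bottom), ordered by value, with limma's 95% interval as a grey line and a ring where the 3 libraries of each diet do not overlap. Most points lie within 0.25 of 0, and Rps27 has the most negative change at -0.81.

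What the genes of both subunits shared was a level that differed from mouse to mouse. Taking each gene's log2(FPKM + 0.5) relative to its own mean over the 6 libraries, the median over large subunit genes was 0.07, -0.04 and -0.07 in chow replicates 1, 2 and 3 and -0.07, 0.06 and 0.06 in ketogenic replicates 1, 2 and 3. The small subunit medians were 0.07, -0.04 and -0.10 on chow and -0.11, 0.10 and 0.09 on the ketogenic diet. Both subunits were thus above their means in chow replicate 1 and ketogenic replicates 2 and 3, and below them in the other 3 libraries, so each diet held libraries of both kinds. Of the 82 genes, 61, 27 and 21 were above their own mean in the chow libraries and 13, 59 and 63 in the ketogenic libraries. Over all tested genes the shares were 56.5%, 44.1% and 57.3% on chow and 43.9%, 43.3% and 53.2% on the ketogenic diet. Chow replicate 3 was thus high over all genes and low in ribosomal protein genes. Mitochondrial ribosomal protein genes had shares of 83.3%, 32.1% and 56.4% on chow and 14.1%, 55.1% and 32.1% on the ketogenic diet. Nuclear-encoded oxidative phosphorylation genes had 96.1%, 22.4% and 42.1%, and 3.95%, 71.1% and 21.1%. Like ribosomal protein genes, both lists were lowest in ketogenic replicate 1, where initiation factors were highest (60.5%).

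**Figure D2:**
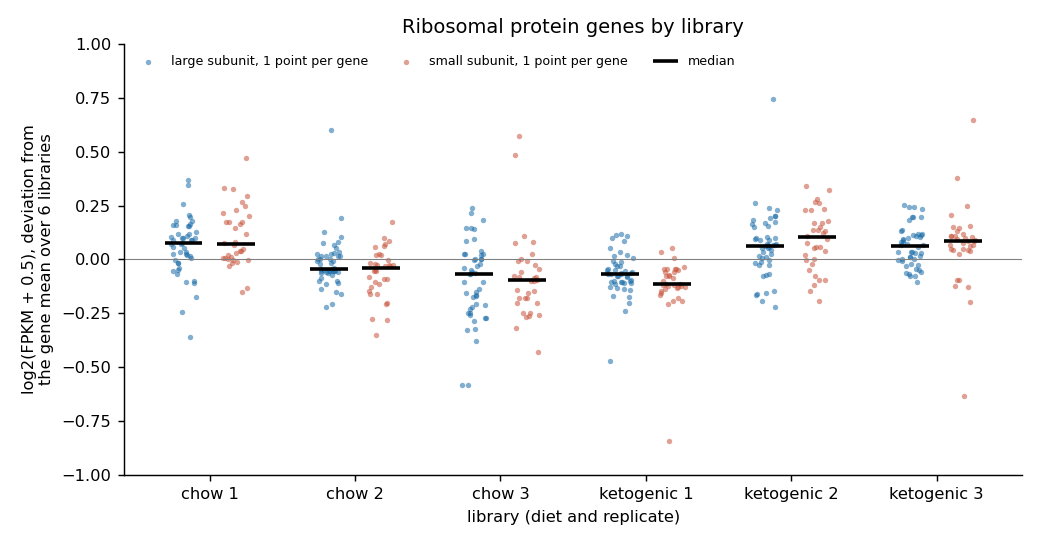
Deviation of log2(FPKM + 0.5) from the mean of that gene in all 6 libraries, for each ribosomal protein gene in each library, with large and small subunit genes side by side and the median of each as a bar. The 2 medians of a library move together, and the libraries above and below 0 are found on both diets.

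As a share of all FPKM, the 82 genes made up 1.85%, 1.78% and 1.72% in the chow libraries, a mean of 1.79% ± 0.0651 (SD, n = 3). In the ketogenic libraries they made up 1.78%, 1.92% and 1.94%, a mean of 1.88% ± 0.0849 (SD, n = 3). The diets overlapped, since ketogenic replicate 1 was below chow replicates 1 and 2. Large subunit genes accounted for 1.05% ± 0.0358 on chow and 1.11% ± 0.0453 on the ketogenic diet, and small subunit genes for 0.735% ± 0.0297 and 0.764% ± 0.0397.

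Ribosomal protein genes varied little between mice, as did related lists. Within a diet, the median standard deviation was 0.13 for ribosomal protein genes, 0.10 for initiation factors, 0.12 each for mitochondrial ribosomal protein, other TOP and ribosome biogenesis genes, and 0.20 over all tested genes. The median standard deviation over the 6 libraries was 0.14 on the log2 scale, and 0.11 after the median of the 82 genes in each library was subtracted. Over all tested genes it was 0.21, and over the 4686 tested genes averaging 10 FPKM or more it was 0.17, against 0.14 for the 74 ribosomal protein genes among them. In 70 of the 82 it was under 0.2. Only 4 genes exceeded 0.3: Rps27 (0.59), Rpl17 (0.57), Rps4l (0.41) and Rpl37a (0.32). Rpl37a, a large subunit gene, had 31.4, 22.9 and 16.3 FPKM on chow and 26.7, 25.1 and 28.3 on the ketogenic diet, so its spread lay among the chow libraries.

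Levels differed widely between the genes. Mean FPKM, a level per base of merged exons, ran from 0.616 for Rps10 to 394 for Rplp1, with a median of 38.5 (41.6 for large and 34.5 for small subunit genes). Rplp1, an acidic protein of the stalk that recruits elongation factors to the large subunit, had 362, 376 and 334 FPKM on chow and 364, 468 and 460.2 on the ketogenic diet. Rps15, a small subunit protein, followed with 356, 372 and 346 FPKM on chow and 329, 371 and 367 on the ketogenic diet. The ranges of these 2 genes overlapped, and the diets overlapped in both. Rps3a1 came next, with 207, 185 and 187 FPKM on chow and 205, 198 and 204 on the ketogenic diet.

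**Figure D3:**
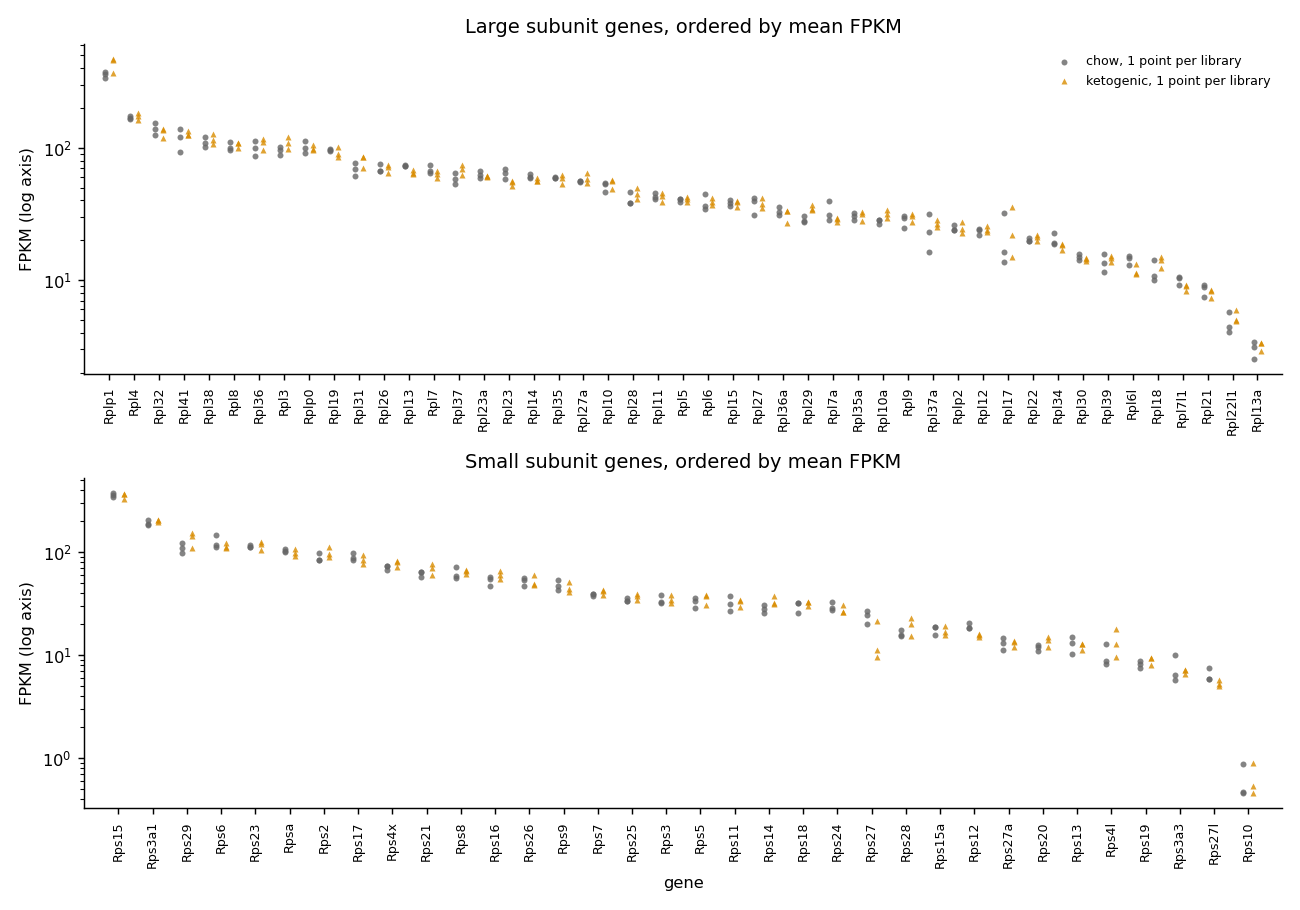
FPKM on a log axis for the large subunit (top) and small subunit genes (bottom), ordered by mean, with 1 grey circle per chow library and 1 orange triangle per ketogenic library. The symbols of the 2 diets overlap for most genes from Rplp1 (mean 394) to Rps10 (mean 0.616), and Rps27 and Rpl17 are spread most widely.

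The other stalk proteins were less abundant by this measure. Rplp0, which anchors the stalk to the ribosome, had 112, 99.6 and 91.0 FPKM on chow and 96.4, 105 and 98.3 on the ketogenic diet. Rplp2, the partner of Rplp1 in the stalk dimers, had 23.8, 23.7 and 26.2 FPKM on chow and 22.8, 27.5 and 24.3 on the ketogenic diet. The log2 changes were 0.26 ± 0.14 (limma SE) for Rplp1, -0.01 ± 0.11 for Rplp0 and 0.02 ± 0.11 for Rplp2, and none was past the adjusted threshold.

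Other large subunit genes at the top of the range stood at similar levels on both diets. Rpl4, which lines the exit tunnel of the growing protein, had 173, 164 and 167 FPKM on chow and 184, 162 and 175 on the ketogenic diet. Rpl32 had 138, 125 and 153 FPKM on chow and 119, 139.5 and 135 on the ketogenic diet. Rpl41, the shortest ribosomal protein, had 120.3, 139 and 93.4 FPKM on chow and 125, 125 and 134 on the ketogenic diet. In all of these genes the diets overlapped. Rpl38, which is needed for translation of a set of Hox messenger RNAs in the mouse embryo, had 121, 109 and 101 FPKM on chow and 114, 126 and 107 on the ketogenic diet. The log2 changes ran from -0.08 ± 0.12 for Rpl32 to 0.14 ± 0.16 for Rpl41.

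The proteins of the catalytic centre and the 5S particle showed no call either. Rpl3, at the peptidyl transferase centre, had 100.4, 96.6 and 87.9 FPKM on chow and 97.9, 108 and 121 on the ketogenic diet, a log2 change of 0.20 ± 0.12. Rpl10, one of the last proteins added to the maturing large subunit, had 54.6, 53.0 and 46.5 FPKM on chow and 48.5, 56.2 and 56.8 on the ketogenic diet (0.07 ± 0.11). Rpl5 and Rpl11 bind the 5S ribosomal RNA and, when ribosome assembly is disturbed, the p53 regulator Mdm2. Rpl5 had 41.1, 39.1 and 41.3 FPKM on chow and 38.7, 42.7 and 40.9 on the ketogenic diet, and Rpl11 had 45.3, 40.7 and 42.5 on chow and 38.9, 42.8 and 45.6 on the ketogenic diet. These 2 genes were nearly level across mice and diets, with log2 changes of 0.01 ± 0.09 and -0.01 ± 0.10.

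Among small subunit genes, Rps6 is the substrate of the S6 kinases downstream of mTOR and is often used as a readout of neuronal activity through its phosphorylation, which RNA does not measure. It had 147, 118 and 113 FPKM on chow and 111, 112 and 122 on the ketogenic diet, a log2 change of -0.12 ± 0.13, with only chow replicate 1 standing above the others. Rps29 had 123, 111 and 97.4 FPKM on chow and 110.5, 152 and 144 on the ketogenic diet (0.29 ± 0.16), and Rps23, which takes part in decoding, had 117, 111 and 113 on chow and 106, 126 and 121 on the ketogenic diet (0.04 ± 0.10). The diets overlapped in all 3. Rpsa, also described as a laminin receptor, had 107, 102 and 100.5 FPKM on chow and 91.0, 99.3 and 107 on the ketogenic diet. Rps3, at the entry of the messenger RNA channel and also a DNA repair protein, had 38.6, 32.3 and 32.8 FPKM on chow and 32.4, 34.7 and 38.7 on the ketogenic diet. Rps19, the gene most often mutated in the human anaemia Diamond-Blackfan, had 8.71, 8.15 and 7.44 FPKM on chow and 8.05, 9.37 and 9.33 on the ketogenic diet. Log2 changes of Rpsa, Rps3 and Rps19 were -0.06 ± 0.10, 0.03 ± 0.12 and 0.13 ± 0.11, none past the adjusted threshold.

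Some ribosomal proteins are made as a fusion with ubiquitin or a ubiquitin-like protein, and the diets overlapped in those described. Rps27a, the small subunit member, had 14.7, 11.2 and 13.2 FPKM on chow and 11.9, 13.5 and 13.6 on the ketogenic diet (0.00 ± 0.13). Outside the symbol rule, Fau, fused to a small subunit protein, had 85.6, 83.1 and 71.3 FPKM on chow and 73.9, 86.0 and 82.7 on the ketogenic diet. Rack1, a scaffold bound to the small subunit, had 20.01, 17.7 and 16.7 FPKM on chow and 20.3, 19.95 and 18.7 on the ketogenic diet. Fau and Rack1 had log2 changes of 0.02 ± 0.11 and 0.12 ± 0.10, and that of Fau turned negative when chow replicate 3, ketogenic replicate 2 or ketogenic replicate 3 was left out.

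In 9 of the 82 members the diets did not overlap, a smaller share than the 12.4% among all tested genes. Of those described, the members higher on the ketogenic diet had log2 changes of 0.19 to 0.29 and the 5 lower ones of -0.28 to -0.16. Rpl29, a large subunit protein also described as a heparin-binding protein, had 28.0, 30.7 and 27.3 FPKM on chow (28.7 ± 1.78, SD, n = 3) and 34.5, 37.2 and 33.6 on the ketogenic diet (35.1 ± 1.88). Its log2 change was 0.29 ± 0.09 (SE; 95% interval 0.06 to 0.51; limma Benjamini-Hochberg adjusted p = 0.752). Each ketogenic library of Rpl29 was higher than every chow library. Rpl10a had 28.3, 28.5 and 26.6 FPKM on chow and 29.6, 34.0 and 31.8 on the ketogenic diet (0.19 ± 0.09), and Rps14 had 30.9, 28.4 and 25.6 on chow and 31.5, 37.5 and 31.8 on the ketogenic diet (0.24 ± 0.12).

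Lower on the ketogenic diet in every library were 3 large and 2 small subunit genes. Rps12 had 20.6, 18.3 and 18.3 FPKM on chow (19.1 ± 1.32, SD, n = 3) and 15.0, 16.1 and 15.8 on the ketogenic diet (15.6 ± 0.561). Its log2 change was -0.28 ± 0.09 (95% interval -0.50 to -0.05; limma Benjamini-Hochberg adjusted p = 0.752). Every ketogenic library of Rps12 was below every chow library. Rpl23, which like Rpl5 and Rpl11 can bind Mdm2, had 64.3, 58.1 and 69.4 FPKM on chow and 54.8, 51.3 and 56.4 on the ketogenic diet (-0.23 ± 0.10). Rpl13 had 73.4, 72.2 and 73.6 FPKM on chow and 63.7, 67.7 and 64.1 on the ketogenic diet (-0.16 ± 0.08). Rpl34 had 22.8, 18.9 and 18.99 FPKM on chow and 16.8, 18.7 and 18.3 on the ketogenic diet (-0.16 ± 0.11), so that its diets were separated by a narrow gap. Rps27l, a p53-induced paralog of Rps27, had 7.48, 5.92 and 5.85 FPKM on chow and 5.68, 5.05 and 5.30 on the ketogenic diet (-0.24 ± 0.13).

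Several ribosomal protein genes have paralogs, some with a restricted expression in mammals, and those described here were lower than the common form. Rpl3l, the form of Rpl3 found in heart and skeletal muscle, was below the threshold with 0.656, 0.484 and 0.197 FPKM on chow and 0.173, 0.217 and 0.110 on the ketogenic diet. Rpl39l, the testis form of Rpl39, was at 0 in 3 libraries and at most 0.0934 FPKM, while Rpl39 had 15.6, 13.4 and 11.6 FPKM on chow and 13.6, 14.6 and 15.1 on the ketogenic diet. The common form was thus the more abundant in both pairs. Rpl22l1 had 5.76, 4.43 and 4.02 FPKM on chow and 4.93, 4.96 and 5.97 on the ketogenic diet, beside Rpl22 with 20.9, 19.8 and 19.8 and 21.3, 21.9 and 19.6. Rpl7l1 had 10.5, 9.11 and 10.4 FPKM on chow and 8.97, 8.32 and 9.18 on the ketogenic diet, beside Rpl7 with 74.5, 67.1 and 64.8 and 63.0, 58.6 and 67.2. None of these 4 genes was called, and the common form was the higher of its pair in each library. Rps4l had 12.7, 8.71 and 8.22 FPKM on chow and 9.68, 12.7 and 17.9 on the ketogenic diet (0.40 ± 0.26), beside Rps4x with 74.2, 73.0 and 67.1 and 71.5, 81.6 and 80.1 (0.12 ± 0.10).

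The gene Rps27, which encodes a zinc-finger protein of the small subunit, had the most negative log2 change of all members, and a copy of it had the opposite change. Rps27 had 24.8, 20.04 and 26.6 FPKM on chow (23.8 ± 3.37, SD, n = 3) and 9.65, 21.3 and 11.2 on the ketogenic diet (14.1 ± 6.34), a log2 change of -0.81 ± 0.29 (95% interval -1.52 to -0.10; limma Benjamini-Hochberg adjusted p = 0.752). Ketogenic replicates 1 and 3 were low, and ketogenic replicate 2 was within the chow range. Rps27rt, a copy on chromosome 9 whose coding sequence lies in a single exon where that of Rps27 on chromosome 3 spans 4, had 50.5, 62.6 and 29.8 FPKM on chow (47.6 ± 16.6) and 103, 85.0 and 143 on the ketogenic diet (110.3 ± 29.4). Every ketogenic library of Rps27rt was above every chow library, with a log2 change of 1.23 ± 0.31 (95% interval 0.49 to 1.98; limma adjusted p = 0.752). Rps27rt falls outside the symbol rule and was named after its values were seen.

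The coding sequences of Rps27 and Rps27rt are identical over all 252 bases in the GENCODE M21 transcripts, so reads from them cannot be assigned to either gene by their letters. The shared sequence is printed once, with no capitals because no base differs.
Rps27 and Rps27rt: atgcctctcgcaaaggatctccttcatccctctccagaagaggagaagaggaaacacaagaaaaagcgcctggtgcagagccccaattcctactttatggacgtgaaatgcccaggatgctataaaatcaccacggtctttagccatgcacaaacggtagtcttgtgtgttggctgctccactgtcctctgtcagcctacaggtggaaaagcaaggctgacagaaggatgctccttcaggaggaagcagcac

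Around their annotated starts the identity begins just after the start. The RefSeq sequences (GRCm38.p6, 40 bases before to 20 after) are shown with the beginning of a 38-base stretch common to both genes in capitals, as far as the window reaches.
Rps27, chr3:90213629-90213688, minus strand: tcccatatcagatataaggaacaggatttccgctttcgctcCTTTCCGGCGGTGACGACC
Rps27rt, chr9:114982720-114982779, minus strand: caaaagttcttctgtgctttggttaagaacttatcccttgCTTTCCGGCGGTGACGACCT

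Taken as a pair, reads of Rps27 and Rps27rt were divided differently in each library. Rps27 held 57.8% (95% Wilson interval 55.8 to 59.7), 47.2% (45.1 to 49.2) and 71.3% (69.0 to 73.5) of the pair's reads in chow replicates 1, 2 and 3. In ketogenic replicates 1, 2 and 3 it held 20.7% (19.2 to 22.2), 41.2% (39.2 to 43.2) and 18.01% (16.7 to 19.5), each below every chow library. The intervals cover counting error only. Together the 2 genes had 44.7, 44.3 and 38.9 RPM (reads scaled to library depth but not to length) on chow and 48.7, 54.0 and 65.0 on the ketogenic diet, so the sum was higher in each ketogenic library, by 0.38 on the log2 scale. The negative change of Rps27 did not hold for the summed pair. The sources used here do not say how reads with several alignments were assigned, and the part of this in these values was not tested.

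Rpl17, a large subunit protein near the exit tunnel, was the second most variable member, and it too had a copy that was low where the gene was high. Rpl17 had 16.2, 32.0 and 13.8 FPKM on chow and 15.0, 35.4 and 22.0 on the ketogenic diet, high in replicate 2 of each diet. Its processed pseudogene Rpl17-ps10, which matches 548 of the 552 coding bases, had 73.0, 32.0 and 45.2 FPKM on chow and 60.3, 35.0 and 54.8 on the ketogenic diet, and its lowest 2 libraries were the same replicates. Summed over Rpl17 and 9 named pseudogenes, the total came to 74.7, 74.8 and 57.7 RPM on chow and 66.8, 76.9 and 73.6 on the ketogenic diet. The standard deviation over the 6 libraries, on the log2 scale, was 0.16 for the sum and 0.58 for Rpl17 alone. Neither Rpl17 (log2 change 0.23 ± 0.41) nor Rpl17-ps10 (0.04 ± 0.34) was called.

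**Figure D4:**
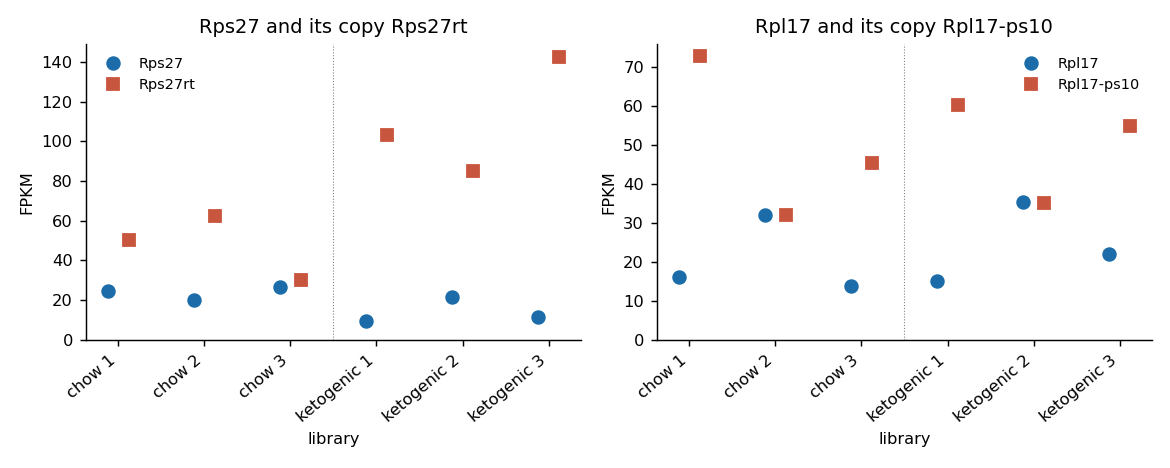
FPKM of Rps27 and Rps27rt (left) and of Rpl17 and Rpl17-ps10 (right) in each library, with the gene as a blue circle and the copy as a red square. Ketogenic replicates 1 and 3 are lowest for Rps27 and highest for Rps27rt, and replicate 2 of each diet is highest for Rpl17 and lowest for Rpl17-ps10.

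A further gene, Rps10, was low beside its copy. This small subunit gene, also linked to Diamond-Blackfan anaemia, had 0.878, 0.454 and 0.473 FPKM on chow and 0.538, 0.896 and 0.458 on the ketogenic diet, a mean of 70.2 reads per library. Rps10-ps2, which matches 490 of its 495 coding bases, had 36.3, 38.9 and 29.5 FPKM on chow and 35.6, 43.0 and 38.9 on the ketogenic diet. Rps10 thus held between 5.15% (Wilson interval 3.97 to 6.66) and 10.1% (8.50 to 12.04) of the reads of the pair. The merged exons of Rps10 also share 475 bases, 20.6% of their length, with the readthrough gene RPS10-NUDT3 on the same strand.

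Copies of this kind were common in the table. Of 202 rows named as a copy of a ribosomal protein gene, 49 averaged 0.5 FPKM or more, belonging to 35 genes, and in 2 of the 49 the copy had more reads than the gene (Rps27rt and Rps10-ps2). The median identity to the parent's coding sequence was 99.4%, with a range from 79.9% to 100%. Of the copies named by -ps, 44 were tested, of which 26 (59.1%) had a positive log2 change, against 43.1% of all tested genes. At an unadjusted p under 0.05, 1 was higher (background 2.06%) and 2 were lower (background 3.32%). Rps26-ps1 had 1.32, 1.51 and 0.609 FPKM on chow and 1.98, 2.43 and 4.36 on the ketogenic diet (1.04 ± 0.33). Rpl14-ps1 had 72.7, 74.0 and 80.6 FPKM on chow and 66.0, 57.5 and 61.9 on the ketogenic diet (-0.29 ± 0.10), and Rpsa-ps10 had 2.96, 3.66 and 3.03 on chow and 1.93, 2.51 and 1.55 on the ketogenic diet (-0.59 ± 0.17). Their adjusted p by limma was 0.752 in all 3.

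The threshold of 0.5 FPKM divided Rps10, inside with a mean of 0.616, from Rpl24, outside with 0.333. Below it lay Rpl24, Rps3a2 (0.306), Rpl3l (0.306), Rpl32l (0.120) and Rpl39l (0.0346). Rpl24 encodes a large subunit protein, and its row had 17.0 reads per library on average. Its merged exons share 484 bases, 47.0% of their length, with the overlapping gene Gm28037 on the same strand. Rpl13a, the lowest large subunit member with 2.54, 3.43 and 3.10 FPKM on chow and 3.35, 3.33 and 2.93 on the ketogenic diet, shares 621 bases (29.4%) with Gm45713 on the same strand. Other low members were Rpl21, with 8.86, 7.42 and 9.16 FPKM on chow and 8.27, 7.38 and 8.43 on the ketogenic diet, and the pseudogene Rps3a3, with 6.41, 5.74 and 10.1 on chow and 7.12, 7.19 and 6.601 on the ketogenic diet. Both had diets that overlapped. Among the 82 members, 20 overlapped another gene by at least 30 bases of exon, small RNA genes left aside. The largest share was that of Rpl35, with 66.2% of its exon bases under Wdr38 on the opposite strand, followed by Rpl23a with 59.7% under Tlcd1. The sources used here do not say how reads over 2 genes were counted, so levels of these genes are uncertain.

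The order of levels also depended on the length used. FPKM divides by all merged exon bases, whose median was 1776 over the 82 members, while the median coding length was 453 bases over the 79 protein-coding members. With the same reads divided by coding length, a level chosen after seeing the data, the upper quartile was 1.99 times the lower quartile, against 3.16 times in FPKM. By their quartiles the genes were thus more alike per coding base. The highest was 664 times the lowest on that scale, against 640 times in FPKM. Rpl41, with a coding length of 75 bases, moved from rank 7 in FPKM to rank 1, at a level of 1909 per coding kilobase, scaled to depth as in FPKM. Rps24, with 6256 exon bases, moved from rank 56 to rank 5, and Rps15a, with 6270, from rank 65 to rank 15. In the other direction Rpl36, with 383 exon bases, moved from rank 12 to rank 60. Rps10 and Rpl13a stayed lowest on both scales.

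**Figure D5:**
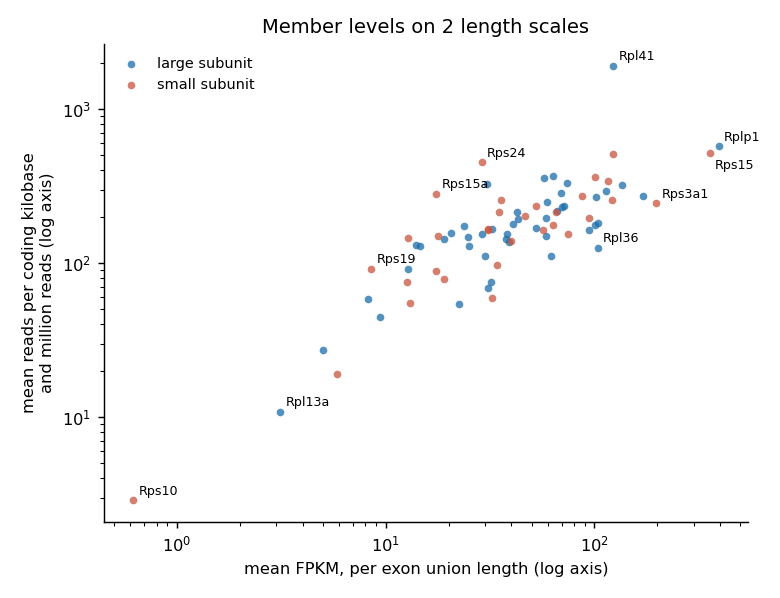
Mean level of the 79 protein-coding members per kilobase of merged exons (FPKM, horizontal, log axis) and per kilobase of coding sequence, scaled to depth in the same way (vertical, log axis), with large subunit genes in blue and small subunit genes in red. Rpl41, Rps24 and Rps15a lie above the cloud and Rpl36 below it, and Rps10 and Rpl13a are lowest on both axes.

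Genes that make, regulate or work with the ribosome were read beside it, and none of them was past the adjusted threshold. Over all tested genes, 43.1% had a positive log2 change, and 2.06% were higher and 3.32% lower at an unadjusted p under 0.05. Of 78 mitochondrial ribosomal protein genes tested, 25 (32.1%) had a positive log2 change (median -0.07), with 0 higher and 2 lower at that p, a share lower that is under the background. Mrps25 had 5.10, 5.14 and 5.67 FPKM on chow and 3.67, 4.26 and 4.36 on the ketogenic diet (-0.34 ± 0.11), and Mrpl24 had 13.4, 13.4 and 14.3 on chow and 12.1, 11.98 and 11.1 on the ketogenic diet (-0.22 ± 0.09). In both genes the diets did not overlap. That held for 3 genes higher and 13 lower in this list, or 20.5%, against 12.4% of all tested genes. Nuclear-encoded genes of oxidative phosphorylation, taken by symbol, were positive in 21 of 76 (27.6%, median -0.07). At that p, 6 were lower and 1 was higher, the row Atp5k-ps2, which is named as a pseudogene. Cox6c, a subunit of cytochrome oxidase, had 42.3, 36.9 and 40.2 FPKM on chow and 31.9, 34.2 and 30.6 on the ketogenic diet (-0.30 ± 0.10). Cox7a1, a form of another subunit most abundant in muscle, had 5.03, 2.79 and 2.79 FPKM on chow and 1.10, 1.21 and 2.02 on the ketogenic diet (-1.04 ± 0.28).

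Initiation factors were positive in 24 of 38 (median 0.04) and elongation factors in 5 of 11 (median -0.14), with none of either list at an unadjusted p under 0.05. Eif4b, which helps unwind messenger RNA and is an S6 kinase substrate, had 40.2, 44.8 and 43.4 FPKM on chow and 48.1, 48.8 and 51.4 on the ketogenic diet (0.21 ± 0.09). Eif4g2 had 73.3, 64.9 and 71.8 FPKM on chow and 63.3, 56.8 and 59.2 on the ketogenic diet (-0.22 ± 0.10). Both factors had diets that did not overlap. Eef1b2, the exchange factor of the elongation factor that delivers transfer RNAs, had 25.7, 24.4 and 24.99 FPKM on chow and 21.0, 21.7 and 24.2 on the ketogenic diet (-0.17 ± 0.09).

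Other transcripts known to carry a TOP motif were positive in 7 of 16 (median -0.09). At an unadjusted p under 0.05, 1 was higher (background 2.06%). This was Snhg1, a non-coding host of small nucleolar RNAs, with 1.90, 1.98 and 2.03 FPKM on chow and 2.55, 2.53 and 2.75 on the ketogenic diet (0.33 ± 0.11). Gas5, another such host, had 14.2, 13.6 and 12.7 FPKM on chow and 13.9, 13.8 and 17.5 on the ketogenic diet (0.15 ± 0.12). Naca, a chaperone at the exit tunnel, had 25.3, 24.8 and 28.6 FPKM on chow and 21.6, 23.8 and 23.4 on the ketogenic diet (-0.19 ± 0.10). The 2 hosts and Naca differed in sign.

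Ribosome biogenesis genes were positive in 19 of 50 (median -0.03), RNA polymerase I and its regulators in 8 of 15 (median 0.02), and mTOR and S6 kinase genes in 11 of 17 (median 0.04). At an unadjusted p under 0.05 there were 1 higher, none, and 1 in each direction (background 2.06% higher and 3.32% lower). Bop1, needed for processing of large subunit RNA, had 10.97, 11.2 and 10.05 FPKM on chow and 13.02, 14.1 and 11.8 on the ketogenic diet (0.26 ± 0.11). Sesn1, an inhibitor of mTOR complex 1, had 12.3, 16.4 and 14.4 FPKM on chow and 19.9, 21.1 and 16.6 on the ketogenic diet (0.41 ± 0.15). Larp4, an RNA-binding protein that stabilizes messenger RNAs, had 6.73, 5.52 and 6.82 FPKM on chow and 5.15, 3.61 and 4.74 on the ketogenic diet (-0.46 ± 0.16). The diets did not overlap in these 3 genes.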

How the data were processed

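Poly(A) RNA from 6 mice, 3 per diet and 1 library each, was sequenced from paired-end libraries, per the labels' protocols. The authors deposited FPKM per gene. HISAT2, featureCounts of Subread and build GRCm39 are named in the submitters' processing notes. The sources used here do not give versions, strand setting or the treatment of multiply aligned reads.

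Whole reads could be recovered from the FPKM steps for 33859 of 33862 genes above 0. For 32557 of these, all 82 members among them, the steps match merged exon lengths of GENCODE M21 (GRCm38) within 0.01 read, from which symbols (35175 of 36079 identifiers), coding lengths and overlaps were also taken. Coordinates are given only for the RefSeq promoter sequences (GRCm38.p6) and are not those of the build named for the table.

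The test was limma's (version 3.58.1, R 4.3.3, trended eBayes, two-sided) on log2(FPKM + 0.5) of the genes averaging 0.5 FPKM or more. Diet was its single term, and p-values were adjusted by Benjamini-Hochberg across all 16009 genes, with a threshold of 0.05. Log2 changes are ketogenic minus chow on that scale, which understates changes of low genes. They carry limma's SE, and levels the SD over 3 mice. The code was tested on simulated data. Copies were aligned with Biopython 1.88.

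Members and comparison lists were chosen with earlier results of these data known. Named genes are, per subunit, the 5 highest and 3 lowest by mean FPKM and up to 3 per direction with the smallest p among those whose diets do not overlap, then genes by role, paralog pairs (Rpl10l was not analysed here) and, in each comparison list, up to 2 per direction with the smallest p, of which some are printed. Alternatives were pseudocounts of 0.1 and 1, no filter or 2 FPKM, TPM, quantile and median scaling, robust eBayes, library weights, a replicate block, voom on recovered reads and each library left out. Some genes chosen by these rules are not reported here and are left out of the gene-by-gene plots.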

Additional observations from a re-analysis of the deposited data

How the results depend on the processing

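No ribosomal protein gene passed the adjusted threshold under any alternative tried. The count of positive changes (52 of 82) ran from 39 without chow replicate 3 to 61 with median centring. The share of FPKM stayed within the spread between mice. The subunit medians also stayed within that spread, but the large subunit median (0.04) ran from -0.0067 without chow replicate 3 to 0.071 without ketogenic replicate 1, and the small subunit median (0.04) from 0.018 to 0.12. At an unadjusted p under 0.05, the number higher (2) became 1 with robust eBayes, voom or the replicate block and 6 with library weights. The number lower (2) became 1 with median centring, 5 with library weights and 0 with the replicate block. With single libraries left out the numbers ran from 0 to 5 higher and from 0 to 4 lower, and the large minus small subunit median from -0.047 to 0.0097. Why was not tested. Same-numbered libraries were not treated as pairs in the main test. Correlations of deviations between them were -0.04, 0.48 and -0.21, and those between differently numbered libraries ran from -0.31 to 0.45. The libraries also differed in the brain regions they held, so these values cannot show whether mice were paired.

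Of 766 alternative values for 45 named genes, 54 in 20 genes had the opposite sign, and the cause was not tested. Under TPM the log2 change became 0.00015 for Rpl11, 0.0037 for Rplp0 and 0.0016 for Rps15. Median centring gave 0.040 for Rpl11, 0.043 for Rplp0, 0.041 for Rps15 and 0.0098 for Rps3a3. Quantile normalization gave -0.051 for Rpl4, -0.014 for Rpl5, -0.012 for Rplp2, -0.014 for Rps23, -0.0076 for Rps27a and -0.014 for Rps3a1. Library weights gave -0.029 for Rpl5, 0.060 for Rplp0, -0.076 for Rplp2, -0.0025 for Rps23 and -0.045 for Rps27a, and voom gave -0.0049 for Rps27a. Summing reads with the copy gave 0.38 for Rps27. With single libraries left out the log2 change ran from -0.063 to 0.080 for Fau, -0.0012 to 0.14 for Rpl10, -0.067 to 0.046 for Rpl11, -0.026 to 0.16 for Rpl13a, -0.085 to 0.59 for Rpl17 and -0.24 to 0.35 for Rpl17-ps10. Further ranges were -0.0041 to 0.21 for Rpl39, -0.019 to 0.27 for Rpl41, -0.024 to 0.046 for Rpl5, -0.084 to 0.068 for Rplp0, -0.057 to 0.074 for Rplp2 and -0.12 to 0.21 for Rps10. The remaining ones were -0.045 to 0.042 for Rps15, -0.0090 to 0.11 for Rps23, -0.10 to 0.088 for Rps27a, -0.038 to 0.11 for Rps3 and -0.20 to 0.19 for Rps3a3. Depth limits Rps10, with 70.2 reads per library.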
